A study of Arabidopsis thaliana with 40 samples.

Results

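The 36 probe sets described here read transcripts of the Arabidopsis thaliana shoot apex that were higher 7 days after a move to long days in both wild-type accessions and changed less in 3 flowering mutants. They were chosen from 22746 probe sets by differences of group means between day 7 and day 0 on the log2 scale: at least 0.8 in Columbia (Col) and in Landsberg erecta (Ler), under 0.5 in co-2 and in ft-2, and in lfy-12 under 50% of the Col difference. The rule was met by 43 probe sets, of which 7 that belong to genes or probe sets left out by name are not counted. Of the 36 members, 18 have 1 gene listed and 18 have none. The differences between day 7 and day 0 chose the members, so they are given as a description with no test. Tests compared only group means of days 3 and 5, whose arrays took no part in the choice. The spread in these tests was estimated from all 40 arrays, those of days 0 and 7 included.

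Plants spent 30 days at 21 °C in short days (9 h light, 15 h dark) and then moved to long days (16 h light, 8 h dark). RNA of whole shoot apices was hybridised at days 0, 3, 5 and 7 of this treatment, with 2 arrays in each of 20 groups and 40 arrays in all. The 5 genotypes were the Columbia wild type (Col-0), the Landsberg erecta accession, the LEAFY mutant lfy-12, the CONSTANS mutant co-2 and the FT mutant ft-2. All groups had the same short days before the move, and plants kept in short days beyond day 0 were not analysed here, so day length and age changed together. The mutant lfy-12 is known as a Columbia allele and was set against Col, and co-2 and ft-2 are known as Landsberg erecta alleles and were set against Ler.

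In long days the CO protein, a transcriptional regulator, accumulates in leaf veins and switches on FT. The FT protein moves to the shoot apex, binds the bZIP protein FD there and turns on genes that commit the apex to flowering. LFY, a transcription factor made in the young primordia on the flanks of the apex, gives them floral fate and acts after this signal, together with other regulators.

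Array medians lay between 6.91 and 7.07, and the correlation across probe sets within each replicate pair was 0.990 to 0.997, where probe sets are not independent replicates. Whether the 2 replicates of a group had separate plants is not stated, and p-values therefore cover only the spread between these arrays, which may be technical. Transcripts specific to one accession were also seen at a low level in 3 arrays of the other background. Their median share of the full level was 8.54% in replicate 2 of lfy-12 at day 5, 5.69% in replicate 1 of co-2 at day 3 and 4.14% in replicate 1 of ft-2 at day 0, and the other 37 arrays lay between -1.49% and 0.834%. The transcripts of LFY, CO and FT themselves were not analysed here, so the mutant labels were not checked against them. Of 14 shoot meristem genes, CLV3, a stem cell signal, and the polarity genes YAB3 and PHV were measured, with group means of 5.51 to 6.18, 8.65 to 9.21 and 9.63 to 10.13. Of 12 genes of leaf photosynthesis, RCA, LHCB4.1 and PRK were measured and lay between 9.74 and 12.56, so leaf transcripts were present in every group.

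At day 7 the 36 members stood above day 0 by 0.82 to 2.85 log2 units in Col (median 1.14) and by 0.81 to 4.50 in Ler (median 1.34). The same difference ran from -0.39 to 1.02 in lfy-12 (median 0.38), from -0.73 to 0.49 in co-2 (median 0.13) and from -1.22 to 0.43 in ft-2 (median 0.06). Over all probe sets the 5 medians lay between -0.01 and 0.04. The difference was larger in Ler than in Col for 26 members and larger in Col for 10. In lfy-12 it was above both the co-2 and the ft-2 value for 27 members and reached 0.5 or more for 10, so the transcripts were flatter in co-2 and ft-2 than in lfy-12, as the looser limit for lfy-12 allowed. The 3 members below 0 in lfy-12 were AT4G11190 (-0.39), 266693_at (-0.24) and 246531_at (-0.08).

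**Figure D1:**
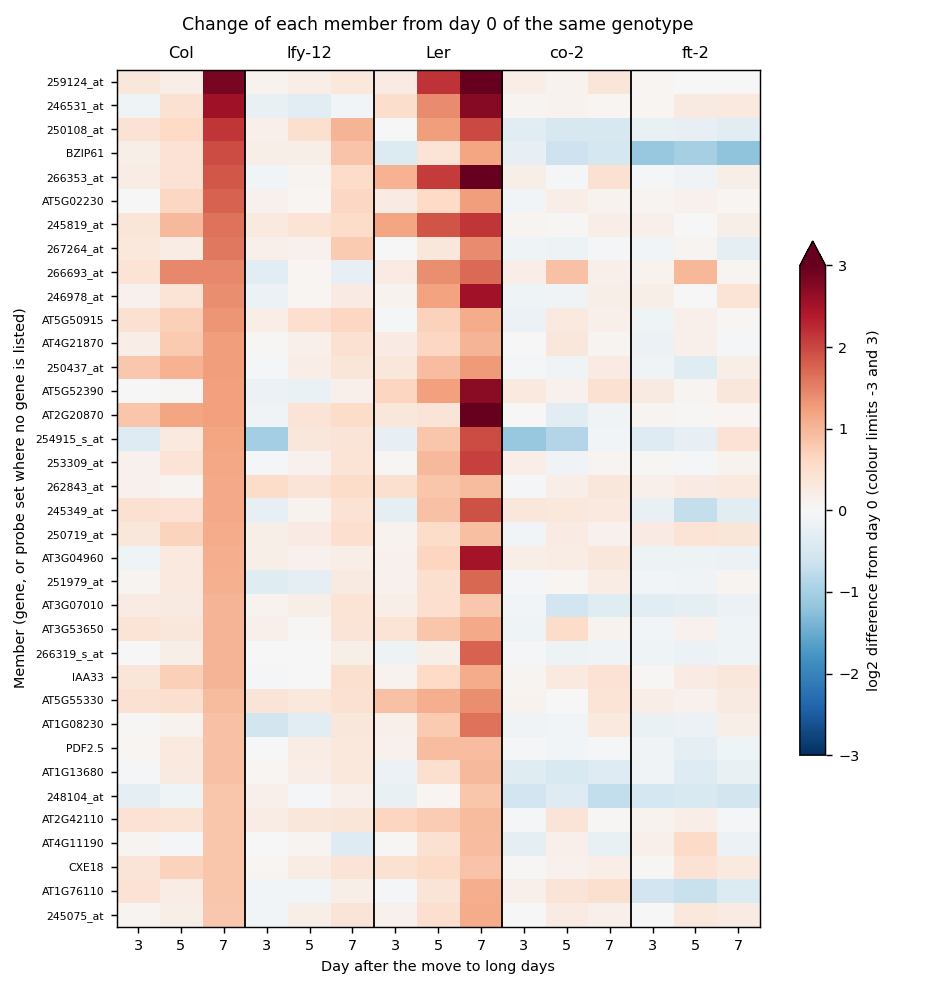
Heat map of the 36 members (rows, ordered by the Col difference at day 7) with the difference of each group mean from day 0 of its own genotype (colour, log2) at days 3, 5 and 7 in 5 genotypes. Both accessions are red at day 7, where the Col values start at 0.82 and the Ler values at 0.81, while co-2 and ft-2 stay pale or blue; these day 7 values chose the members.

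The limits of the rule fall within a continuous range. Just inside and outside the Col limit were 245075_at (0.82) and 256857_at (0.78), and for Ler they were AT3G07010 (0.81) and 264066_at (0.80, which is 0.7998 before rounding). For co-2, AT1G76110 was inside at 0.49 and 250533_at outside at 0.75, and for ft-2 the closest inside was 254915_s_at at 0.43, with no probe set failing that limit alone. For lfy-12, AT5G55330 was inside at 49.1% and AT3G13662 outside at 50.03% of the Col difference. The lfy-12 limit separated the 36 members from 86 probe sets that met the other 4 conditions. With 25% in place of 50% of the Col difference, 10 members were left. Without 1 of the 20 arrays of days 0 and 7 in turn, 27 to 36 of the members were chosen again, and 12 members were chosen in every one of these repeats.

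A mutant's smaller difference can come from its day 0 level as well as from day 7. The shortfall of lfy-12 against Col is the sum of its excess at day 0 and its deficit at day 7, and the day 0 part had a median of 9.82% of the whole, against 7.77% for co-2 and 6.12% for ft-2. The level at day 0 was above that of the accession for 23 members in lfy-12, for 22 in co-2 and for 21 in ft-2. The rule used these arrays and favours a high day 0 level and a low day 7 level in a mutant. The day 0 and day 7 counts given here are therefore a description, and they were not made for all probe sets. In lfy-12 the day 0 part was 50% or more for 4 members. AT2G20870, a predicted cell wall protein, read 6.51 and 6.29 at day 7 on the Col arrays and 6.33 and 6.56 on the lfy-12 arrays, so the groups overlapped, and it differed at day 0, where Col read 5.10 and 5.24 and lfy-12 read 5.79 and 5.99. IAA33, of the Aux/IAA family of auxin response repressors, read 4.97 and 4.96 in Col and 5.03 and 4.85 in lfy-12 at day 7, against 3.96 and 3.93 in Col and 4.34 and 4.56 in lfy-12 at day 0. The other two were CXE18, of the carboxylesterase family, at 63.4% and AT1G08230, a transporter of gamma-aminobutyric acid, at 61.8%. For these 4 members the lfy-12 level at day 7 was 0.21 log2 units or less below Col. The day 7 level was lower in lfy-12 than in Col for 35 of 36 members, with a median deficit of 0.63. Against Ler, all 36 were lower at day 7 in co-2 and in ft-2, with median deficits of 1.47 and 1.34. The share of the shortfall at day 0 reached 50% for no member in co-2 and for 1 in ft-2, 250437_at, at 51.7%.

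**Figure D2:**
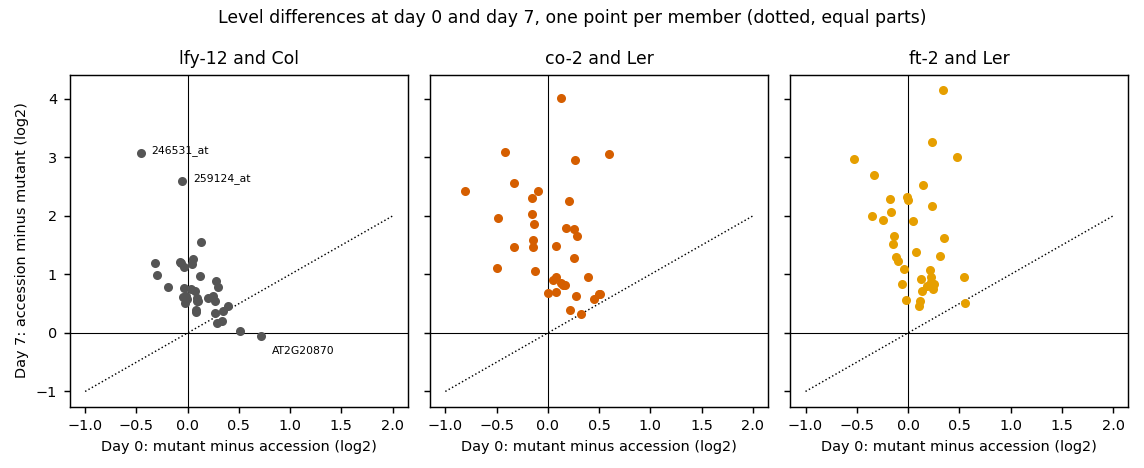
Scatter plots of the level difference at day 7 (accession minus mutant, log2, vertical) against that at day 0 (mutant minus accession, log2, horizontal), with a point for each of the 36 members and a panel for each mutant. Points under the dotted line take more of their shortfall from day 0; 4 do so for lfy-12, among them AT2G20870, and 246531_at lies at the other end with a day 0 level below Col.

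At day 5, on arrays that took no part in the choice, most members were already called lower in the 2 mutants of the photoperiod pathway. Few were called lower in lfy-12. Of 36 members, 22 were called lower in co-2 than in Ler (background: 2.77% of all probe sets called lower) and 24 in ft-2 than in Ler (background: 3.46%). These comparisons share the Ler arrays. In lfy-12 against Col, 4 were called lower (background: 1.53%). No member was called higher by limma in these comparisons (background called higher: 0.761% for lfy-12, 6.83% for co-2 and 7.87% for ft-2), and at an unadjusted p under 0.05 only AT4G11190 was higher, in ft-2 (0.35 ± 0.14, adjusted p = 0.121), a value that passed in the fit of Ler and ft-2 arrays alone (adjusted p = 0.0466). Of all 22746 probe sets, 3496 passed the unadjusted threshold in either direction for lfy-12, 5501 for co-2 and 5676 for ft-2. The median difference over the members was -0.58 in co-2, -0.65 in ft-2 and -0.19 in lfy-12 (log2), and over all probe sets it was 0.06, 0.06 and -0.01. These are differences of level and include those present at day 0. There co-2 differed from Ler by -0.33 for AT5G02230, -0.48 for 251979_at and -0.80 for 245349_at, and lfy-12 from Col by -0.46 for 246531_at. The mutant was higher at day 0 for 22 members in co-2 and 23 in lfy-12. In a bulk apex, fewer cells of a type and less RNA per cell cannot be told apart. The test was limma with Benjamini-Hochberg adjustment over all 22746 probe sets, called at an adjusted p under 0.05, and errors are limma standard errors with n = 2 arrays a group. Without 1 of the arrays compared, the counts were 15 to 18 for co-2, 16 to 20 for ft-2 and 2 to 3 for lfy-12. The lfy-12 count was 2 without either Col array or without lfy-12 replicate 1, and 3 without lfy-12 replicate 2, the array that carried Landsberg erecta transcripts.

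At the same stage the accessions were at different points of their change. At day 5 the members had covered a median of 28.6% of their day 7 difference in Col and 49.8% in Ler, and 10 members in Col and 18 in Ler were past 50%. At day 3 the medians were 12.1% and 9.46%. These shares contain the day 0 and day 7 values that chose the members and are a description.

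The leaf markers differed in the same comparisons. LHCB4.1 was called higher than in Ler at day 5 in co-2 (0.34 ± 0.10, adjusted p = 0.0308) and in ft-2 (0.31 ± 0.10, adjusted p = 0.0446), and RCA and PRK stood at 0.42 and 0.58 in co-2 and 0.54 and 0.42 in ft-2 and were not called. The summed linear signal of the 3 leaf genes was 6116 to 6586 on the Ler arrays of day 5, 8094 to 8602 in co-2 and 7720 to 8966 in ft-2, with 7231 to 7768 in Col and 7633 to 8182 in lfy-12. YAB3, which acts in young lateral organs, was higher in co-2 (0.55 ± 0.08, adjusted p = 1.97e-05) and ft-2 (0.40 ± 0.08, adjusted p = 0.000640), and CLV3 and PHV were not called. None of these genes was called in lfy-12 at day 5. Their part in the results was not tested.

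**Figure D3:**
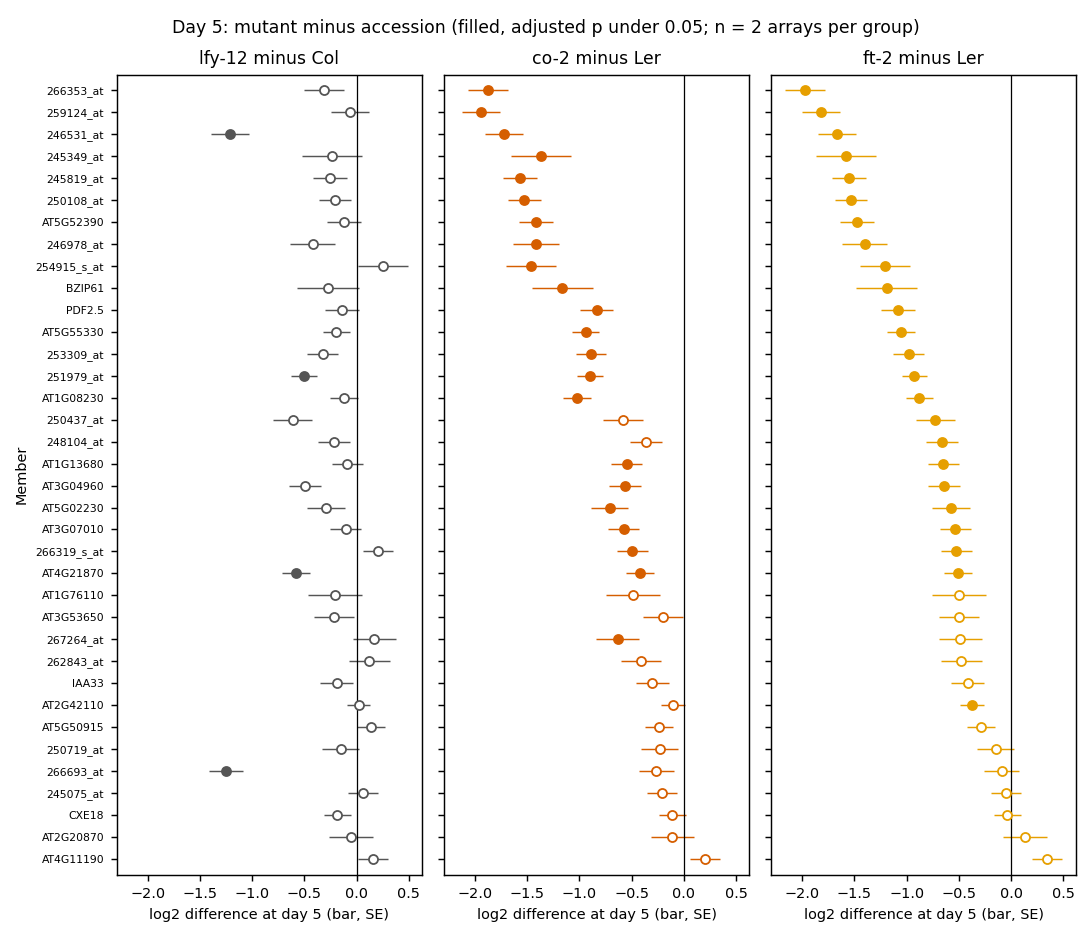
Difference between mutant and accession at day 5 for each of the 36 members (points, log2, with the limma standard error; filled points have an adjusted p under 0.05; 2 arrays a group), ordered by the ft-2 difference. Filled points number 4 for lfy-12, 22 for co-2 and 24 for ft-2, and the lfy-12 points other than 246531_at and 266693_at lie between -0.61 and 0.25.

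Among the members with no gene listed, the 6 with the largest Col difference at day 7 are described first. The signal of 259124_at on the Col arrays was 3.96 and 4.26 at day 0, 4.44 and 4.46 at day 3, 4.30 and 4.33 at day 5, and 6.93 and 6.99 at day 7. In Ler it was 3.79 and 3.97, 4.14 and 4.12, 6.34 and 5.77, and 8.46 and 8.30 on the same days. All 24 arrays of the 3 mutants lay between 3.92 and 4.67. It was thus near its day 0 level until day 5 in Col and until day 3 in Ler, and it stayed low in the mutants at all days. At day 5 it was lower than in Ler by 1.94 ± 0.18 in co-2 (adjusted p = 2.66e-08) and by 1.82 ± 0.18 in ft-2 (adjusted p = 7.20e-08), whereas lfy-12 and Col differed by -0.07 ± 0.18 and neither had left the day 0 level.

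The probe set 246531_at was called lower at day 5 in each of the 3 mutants. Col read 4.97 and 5.00 at day 0, 4.76 and 4.95 at day 3, 5.26 and 5.61 at day 5, and 7.26 and 7.79 at day 7. The lfy-12 arrays read 4.54 and 4.52, 4.48 and 4.14, 3.97 and 4.48, and 4.34 and 4.56 on those days. The ranges of lfy-12 and Col did not overlap on any day. At day 5 lfy-12 was lower than Col by 1.21 ± 0.18 (adjusted p = 0.000125). This call held in every alternative run that kept the probe set, with differences of -1.47 to -0.95. Ler read 4.64 and 4.92 at day 0, 5.62 and 5.01 at day 3, 6.25 and 6.13 at day 5, and 7.43 and 7.57 at day 7. All co-2 and ft-2 arrays lay between 4.24 and 4.66, and at day 5 they were lower than Ler by 1.72 ± 0.18 and 1.66 ± 0.18.

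The next 3 probe sets of this group were called lower in co-2 and in ft-2 and not in lfy-12 at day 5. For 266353_at, Ler read 6.44 and 6.58, co-2 4.57 and 4.69 and ft-2 4.44 and 4.63, differences of -1.88 ± 0.19 and -1.97 ± 0.19. For 250108_at, Ler read 5.88 and 5.36, co-2 4.12 and 4.07 and ft-2 4.09 on both arrays, and each mutant was lower by 1.53 ± 0.15. For 245819_at, Ler read 6.29 and 5.99, co-2 4.74 and 4.42 and ft-2 4.69 and 4.49, differences of -1.57 ± 0.16 and -1.55 ± 0.16. All 6 of these calls held in every alternative run that kept the probe set, and the run with a mean above 5 left out 250108_at. In lfy-12 the differences from Col were -0.31, -0.21 and -0.26 and were not called, although both lfy-12 arrays read below both Col arrays each time. By day 5 these probe sets had covered 23.5%, 27.9% and 59.6% of their day 7 difference in Col. The sixth, 267264_at, was called lower in co-2 (-0.63 ± 0.21, adjusted p = 0.04997) but not in ft-2 (-0.49 ± 0.21), and the co-2 call was lost under 7 alternatives, among them quantile normalization (adjusted p = 0.0650) and the fits without Ler day 5 replicate 1, Ler day 5 replicate 2 or co-2 day 5 replicate 1 (adjusted p = 0.126, 0.206 and 0.386).

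A different order was seen for 266693_at, named after its values were seen as one of the 4 members lower in lfy-12. At day 5 Col read 6.48 and 6.26, Ler 6.13 and 5.83, co-2 5.83 and 5.60 and ft-2 6.07 and 5.70, while lfy-12 read 5.15 and 5.09. At day 7 Col read 6.19 and 6.56 and Ler 6.47 and 6.08, but co-2 read 4.79 and 5.18 and ft-2 4.95 and 4.99. Its signal was thus high in co-2 and ft-2 at day 5 and back near their day 0 level (4.82 and 4.85 in co-2, 4.92 and 4.84 in ft-2) at day 7. The lfy-12 deficit at day 5 was 1.25 ± 0.17 (adjusted p = 2.62e-05) and held in every alternative run, and against Ler co-2 differed by -0.26 ± 0.17 and ft-2 by -0.09 ± 0.17, which were not called. The step from day 3 to day 5 was called in Col (1.03 ± 0.17), Ler (1.15 ± 0.17) and ft-2 (0.91 ± 0.17), and stood at 0.68 in co-2 (adjusted p = 0.0557) and 0.37 in lfy-12. The co-2 value passed with quantile normalization (0.75, adjusted p = 0.0209) and with a mean above 5 (0.68, adjusted p = 0.044). The ft-2 call was lost in the fit of ft-2 arrays alone (adjusted p = 0.104) and without ft-2 day 3 replicate 1, ft-2 day 3 replicate 2 or ft-2 day 5 replicate 1 (adjusted p = 0.115, 0.340 and 0.502).

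The other member called lower in lfy-12 with no gene listed, 251979_at, was named in the same way. Col read 5.84 and 5.90 at day 5 and lfy-12 read 5.38 and 5.34 (-0.51 ± 0.12, adjusted p = 0.0215). This call did not hold when any 1 of the 4 arrays was left out (adjusted p = 0.107 to 0.172), without the 3 arrays that carried transcripts of the other background (adjusted p = 0.134) and in the fit of Col and lfy-12 arrays alone (adjusted p = 0.0588). In co-2 and ft-2 it was lower than in Ler by 0.90 ± 0.12 and 0.92 ± 0.12, with Ler at 6.57 and 6.35 and the mutants between 5.52 and 5.57.

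**Figure D4:**
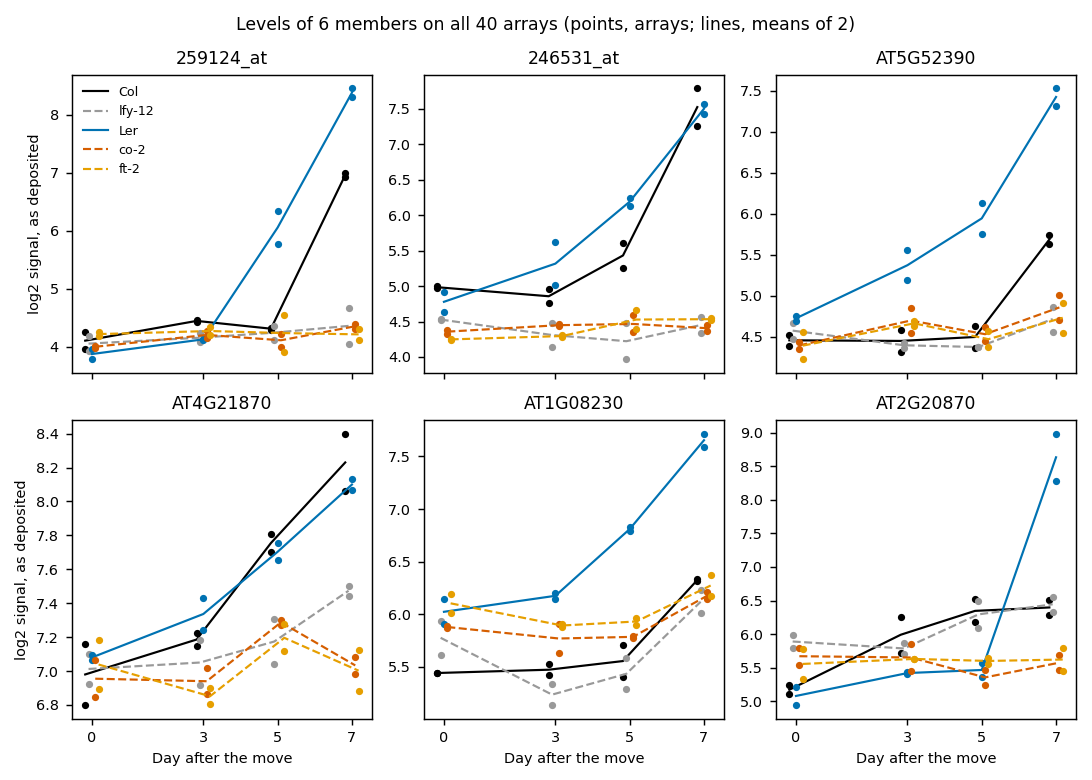
Deposited log2 signal of 6 members by day after the move to long days, with a point for each of the 40 arrays and lines through the means of 2 arrays for 5 genotypes (solid, accessions; dashed, mutants). Panel by panel, 259124_at is high in Ler at day 5 before Col, 246531_at is below Col in lfy-12 at all days, and AT2G20870 reaches 8.99 and 8.28 in Ler at day 7 alone, with lfy-12 overlapping Col at days 5 and 7.

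Of the 18 members with a gene listed, 4 encode proteins of transcription or hormone response and 1 a histone. BZIP61, a bZIP transcription factor, read 6.92 and 6.79 at day 5 in Ler, 5.61 and 5.77 in co-2 and 5.39 and 5.94 in ft-2, so neither mutant overlapped Ler. It was lower by 1.16 ± 0.29 in co-2 (adjusted p = 0.0110) and 1.19 ± 0.29 in ft-2 (adjusted p = 0.00777). The co-2 call did not hold when any 1 of the 4 arrays was left out (adjusted p = 0.0512 to 0.0809) and in the fit of Ler and co-2 arrays alone (adjusted p = 0.0593), and the ft-2 call without Ler day 5 replicate 1 or ft-2 day 5 replicate 1 (adjusted p = 0.0629 and 0.136). Its Ler day 0 arrays read 7.15 and 5.72, an uncertain base for the Ler difference. The summed signal of the leaf genes described above spanned 7863 to 15904 on these arrays. On the ft-2 arrays it was 12845 to 15158 at day 0, where BZIP61 read 6.52 and 6.81. At day 7 of ft-2 it was 7618 to 8337, and BZIP61 read 5.34 and 5.55. The part of the leaf signal in the Ler split and in the ft-2 levels was not tested. AT1G76110, a protein with HMG-box and ARID DNA-binding domains, had the same split at Ler day 0 (7.18 and 5.80) and was not called at day 5 in any mutant. The bHLH gene AT5G50915 and IAA33 were not called in any mutant at day 5 either, with differences of -0.24 and -0.30 in co-2 and -0.29 and -0.42 in ft-2. For IAA33 the ft-2 value passed without the 3 arrays that carried transcripts of the other background (adjusted p = 0.0497) and without ft-2 day 5 replicate 1 (-0.61, adjusted p = 0.0490). The histone H2B gene AT3G53650 stood at -0.20 in co-2, -0.49 in ft-2 and -0.22 in lfy-12 and was not called, although the ft-2 value passed with quantile normalization (-0.59, adjusted p = 0.0359) and without Ler day 5 replicate 2 (-0.82, adjusted p = 0.0191).

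The members that encode enzymes of lipids, cell walls and small molecules were lower in co-2 and ft-2 at day 5, except CXE18. AT5G55330, of the membrane-bound O-acyltransferase family that contains wax synthases, read 6.87 and 6.98 in Ler, 6.07 and 5.89 in co-2 and 5.87 on both arrays in ft-2, and was lower by 0.94 ± 0.13 and 1.05 ± 0.13, calls that held in every alternative run. In lfy-12 it read 6.68 and 6.50 against 6.73 and 6.84 in Col (-0.19 ± 0.13), a difference that was not called. The pectate lyase family gene AT3G07010 was lower by 0.57 ± 0.15 in co-2 and 0.54 ± 0.15 in ft-2, with Ler at 7.13 and 7.00 and both mutants at 6.56 or less. AT1G13680, of the phospholipase C-like phosphodiesterases, was lower by 0.55 ± 0.15 and 0.65 ± 0.15, from a Ler level of 4.35 and 4.37. That level is below the lower quartile of the Ler arrays of days 0 and 7 (4.71 and 4.70), so these are differences between low signals. AT5G02230, of the haloacid dehalogenase-like hydrolases, was lower by 0.71 ± 0.18 and 0.58 ± 0.18, and its signal differed between accessions from the start, with 4.70 and 4.76 in Col and 7.82 and 7.23 in Ler at day 0. CXE18 stood at -0.11 in co-2 and -0.04 in ft-2 and was not called. Calls of AT3G07010, AT1G13680 and AT5G02230 depended on single arrays. AT3G07010 was lost in co-2 without Ler day 5 replicate 1 or co-2 day 5 replicate 2 (adjusted p = 0.0955 and 0.142) and in the fit of Ler and co-2 arrays alone (adjusted p = 0.0712), and in ft-2 without Ler day 5 replicate 1 or either ft-2 array (adjusted p = 0.0790 to 0.124). AT1G13680 was lost in co-2 without either Ler array or co-2 day 5 replicate 2 (adjusted p = 0.0732 to 0.163) and in ft-2 without ft-2 day 5 replicate 2 (adjusted p = 0.0608). AT5G02230 was lost in co-2 without the same 3 arrays (adjusted p = 0.0627 to 0.115) and in ft-2 without any 1 of the 4 arrays (adjusted p = 0.0625 to 0.271).

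A further 3 named members of transport, defence and a little-studied family were also lower in co-2 and ft-2 at day 5. AT5G52390, of the PAR1 family named for photoassimilate-responsive genes of tobacco, read 6.14 and 5.75 at day 5 in Ler, 4.44 and 4.62 in co-2 and 4.57 and 4.37 in ft-2. It was lower by 1.41 ± 0.16 in co-2 (adjusted p = 1.09e-06) and 1.48 ± 0.16 in ft-2 (adjusted p = 3.65e-07). In Col it read 4.63 and 4.36 at day 5 and 5.64 and 5.74 at day 7, so there was no rise yet at day 5 that lfy-12 (4.37 and 4.38) could lack. The transporter gene AT1G08230 read 6.79 and 6.83 in Ler, 5.80 and 5.77 in co-2 and 5.97 and 5.90 in ft-2, lower by 1.02 ± 0.13 and 0.88 ± 0.13. The defensin gene PDF2.5 read 5.65 and 5.21 in Ler, 4.64 and 4.54 in co-2 and 4.42 and 4.27 in ft-2, lower by 0.84 ± 0.16 and 1.08 ± 0.16. The calls for these 3 genes held in every alternative run that kept them, and the run with a mean above 5 left out AT5G52390 and PDF2.5.

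AT4G21870, of the small heat shock protein family, was the only member with a gene listed that was called lower in lfy-12 at day 5. Col read 7.81 and 7.70 and lfy-12 7.04 and 7.31, a difference of -0.58 ± 0.13 (adjusted p = 0.0154). Ler read 7.65 and 7.75, co-2 7.27 and 7.30 and ft-2 7.28 and 7.12, with differences of -0.42 ± 0.13 (adjusted p = 0.0469) and -0.51 ± 0.13 (adjusted p = 0.0127). The 3 mutants thus lay below their accessions with no overlap. The lfy-12 call did not hold without Col replicate 1, Col replicate 2 or lfy-12 replicate 1 of that day (adjusted p = 0.164, 0.0654 and 0.243). The co-2 call did not hold when any 1 of the 4 arrays was left out (adjusted p = 0.0935 to 0.242) and with the replicate block (adjusted p = 0.0502), and the ft-2 call without Ler day 5 replicate 2 or ft-2 day 5 replicate 2 (adjusted p = 0.107 and 0.145).

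Of the remaining 4 named members, AT3G04960 was called in both co-2 and ft-2 and AT2G42110 in ft-2. AT3G04960 was lower by 0.57 ± 0.15 in co-2 and 0.64 ± 0.15 in ft-2, calls lost without Ler day 5 replicate 1 (adjusted p = 0.173 and 0.103), without replicate 2 of the mutant (adjusted p = 0.202 and 0.0554) and, for co-2, in the fit of Ler and co-2 arrays alone (adjusted p = 0.0509). In lfy-12 it read 4.13 and 4.48 against 4.67 and 4.92 in Col (-0.49 ± 0.15, adjusted p = 0.0976). AT2G42110 was called in ft-2 alone (-0.37 ± 0.11, adjusted p = 0.0311), a call lost without either Ler array or ft-2 day 5 replicate 2 (adjusted p = 0.0723 to 0.432) and in the fit of Ler and ft-2 arrays alone (adjusted p = 0.0537). AT2G20870 read 5.36 and 5.57 at day 5 in Ler and 8.99 and 8.28 at day 7, while in Col it read 6.52 and 6.18 at day 5 and 6.51 and 6.29 at day 7. Its Ler level was thus late and high and its Col level early and moderate, and at day 5 no mutant was called. AT4G11190, of the dirigent family, which acts on phenolic radicals, read 8.12 and 7.90 at day 5 in Col and 8.97 and 8.79 at day 7. In lfy-12 it read 8.08 and 8.25 and then 7.47 and 7.92, so the groups overlapped at day 5 and not at day 7.

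The 12 members that are neither named by a gene nor among the 6 above had day 7 differences of 0.82 to 1.45 in Col, 0.83 to 2.52 in Ler, -0.24 to 0.55 in lfy-12, -0.73 to 0.35 in co-2 and -0.55 to 0.43 in ft-2. They include 266693_at, 251979_at, 253309_at and 254915_s_at, described because they were called in lfy-12 or their step differed between genotypes. They also include 2 members with larger day 5 deficits than 251979_at and 253309_at, named here after their values were seen. At day 5 245349_at read 6.80 and 6.67 in Ler, 5.33 and 5.40 in co-2 and 5.24 and 5.07 in ft-2, with differences of -1.37 ± 0.28 (adjusted p = 0.00206) and -1.58 ± 0.28 (adjusted p = 0.000357). Its Ler arrays of day 0 lay far apart (mean 5.86, SD 0.93), an uncertain base for its Ler difference at day 7. For 246978_at the arrays read 6.35 and 5.81 in Ler, 4.47 and 4.86 in co-2 and 4.73 and 4.63 in ft-2, with differences of -1.42 ± 0.22 (adjusted p = 7.42e-05) and -1.40 ± 0.22 (adjusted p = 6.03e-05). Neither mutant overlapped Ler in either case. How far these calls depend on single arrays is not given here, and they are not among the called results counted below.

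At day 3, deficits were called for 7 members in co-2 (background: 1.13%) and 7 in ft-2 (background: 1.63%), again against shared Ler arrays, and for none in lfy-12 (background: 1.13%). By limma without adjustment, 6 members were lower in lfy-12 and 2 higher at p under 0.05. Of all 22746 probe sets, 3207 passed this threshold in either direction. The medians over the members were -0.15 in co-2, -0.22 in ft-2 and -0.12 in lfy-12, and over all probe sets 0.05, 0.05 and 0.01. AT5G55330 showed the earliest stable deficit among the named genes, with Ler at 6.86 and 6.60, co-2 at 5.97 and 6.17 and ft-2 at 5.82 and 6.04. Its differences were -0.66 ± 0.13 in co-2 (adjusted p = 0.00464) and -0.80 ± 0.13 in ft-2 (adjusted p = 0.000520), of which the ft-2 call held in every alternative run. The co-2 call was lost without Ler day 3 replicate 1 (-0.53), without co-2 day 3 replicate 1 (-0.56), which carried Columbia transcripts, and without the 3 such arrays together (-0.56). The co-2 calls of AT5G02230 (-0.67) and AT2G42110 (-0.41) at day 3 were also lost without those 3 arrays (-0.46 and -0.31). AT5G52390 was lower by 0.68 ± 0.16 and 0.71 ± 0.16, and both calls were lost without Ler day 3 replicate 1 (-0.49 and -0.53). The co-2 call was also lost without its own replicate 2 (-0.52) and in the fit of Ler and co-2 arrays alone (adjusted p = 0.0829), and the ft-2 call without either ft-2 array (-0.74 and -0.68). The co-2 count was 1 without Ler day 3 replicate 1, 3 without Ler day 3 replicate 2, 3 without co-2 day 3 replicate 1 and 4 without the 3 arrays that carried transcripts of the other background. The ft-2 count was 2 or 3 without any 1 of the 4 arrays. In lfy-12 a single member, 266693_at, was called without Col day 3 replicate 1 (-0.88) and with quantile normalization (-0.58).

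Between days 3 and 5 the members moved upward in Ler, and few were called in the other genotypes. The step was called higher for 15 members in Ler (background: 1.23%), 3 in Col (background: 0.712%), 1 in lfy-12 (background: 0.242%), 1 in ft-2 (background: 0.0440%) and none in co-2 (background: 0.347%). In co-2 limma without adjustment gave 6 members higher and 1 lower at p under 0.05. There 3043 of all 22746 probe sets passed in either direction. All 36 members were above 0 in Ler and 28 in Col, with medians of 0.50 and 0.23, against 0.01 over all probe sets in both. The medians of the mutants were 0.10 (lfy-12), 0.02 (co-2) and 0.04 (ft-2). Among the 6 members with no gene listed and the 4 described because of their calls, the Ler step was largest for 259124_at (1.92 ± 0.18) and 250108_at (1.25 ± 0.15). Next came 266693_at (1.15 ± 0.17), 254915_s_at (1.08 ± 0.24) and 266353_at (1.06 ± 0.19). Outside this set, the Ler mean went from 5.59 to 6.73 for 245349_at and from 4.97 to 6.08 for 246978_at, steps larger than that of 254915_s_at. Among named genes the Ler step was called for PDF2.5 (0.79 ± 0.16), AT5G50915 (0.71 ± 0.13), AT1G13680 (0.67 ± 0.15), AT1G08230 (0.63 ± 0.13) and AT5G52390 (0.57 ± 0.16). None of these 5 calls held without replicate 2 of Ler day 3 (adjusted p = 0.0823, 0.0533, 0.0894, 0.0630 and 0.499). The Ler count was 7 without that array and 8 without Ler day 5 replicate 1. The Col count was 1 without any 1 of its 4 arrays, the call that held being 266693_at, and 245819_at (0.61) and AT4G21870 (0.57) were the others. The lfy-12 call was that of 254915_s_at (1.37 ± 0.24), lost without its replicate 1 of day 3 (1.15) or its replicate 2 of day 5 (1.12), the array with Landsberg erecta transcripts. In co-2 266693_at was called with quantile normalization (0.75) and with a mean above 5 (0.68), and AT2G42110 without co-2 day 3 replicate 2 (0.52).

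The step was then compared between genotypes. Against Ler it was smaller in co-2 for 4 members (background: 0.101%) and in ft-2 for 4 members (background: 0.167%), and against Col it was larger in Ler for 2 members (background: 0.0440%). Between lfy-12 and Col no member was called by limma (background: 0.00440% lower), and 6 were lower and none higher at an unadjusted p under 0.05. Of all 22746 probe sets, 1091 passed that unadjusted threshold in either direction. For 259124_at the difference of the step from Ler was -2.02 ± 0.26 in co-2 (adjusted p = 7.19e-05) and -1.96 ± 0.26 in ft-2 (adjusted p = 9.98e-05). That of Ler from Col was 2.06 ± 0.26 (adjusted p = 7.84e-05). These 3 calls held in every alternative run that kept the probe set. Without the 3 arrays that carried transcripts of the other background, the co-2 difference of 266353_at (-1.22, adjusted p = 0.134) and the Ler and Col difference of 250108_at (1.08, adjusted p = 0.0621) were no longer called. Without them the co-2 difference of AT3G07010 (-1.14, adjusted p = 0.00723) and the ft-2 difference of PDF2.5 (-0.98, adjusted p = 0.0346) were called.

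The 86 probe sets that met the other conditions but kept 50% or more of the Col difference in lfy-12 were compared in the same way at day 5. Of these, 56 (65.1%) were called lower in co-2, 65 (75.6%) in ft-2 and 2 (2.33%) in lfy-12, against 61.1%, 66.7% and 11.1% of the 36 members. Their median differences were -0.68, -0.64 and -0.14. Their step from day 3 to day 5 was called higher for 40 (46.5%) in Ler, 7 (8.14%) in Col and 6 (6.98%) in lfy-12. The shares of the members were 41.7%, 8.33% and 2.78%. At day 3, 17 (19.8%) were called lower in co-2, 20 (23.3%) in ft-2 and 2 (2.33%) in lfy-12, against 19.4%, 19.4% and none of the members. The difference between the lists was not tested.

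Few known genes of the floral pathway had a probe set with that gene alone listed. Of 12 genes of floral meristem identity, UFO, an F-box partner of LFY, and PUCHI, an AP2-family regulator of primordia, were measured, and of 15 genes of floral organ identity and patterning, SPL/NZZ and SPT, a bHLH gene of carpel development. Of 14 genes of the photoperiod pathway and FT signalling, GI, FD, AGL24 and AGL42 were measured. At day 5 UFO, SPT and AGL42, a MADS-box gene, were called lower in co-2 (-1.36 ± 0.17, -0.77 ± 0.13 and -1.19 ± 0.18) and in ft-2 (-0.97 ± 0.17, -0.83 ± 0.13 and -1.62 ± 0.18), and the other 5 were not called. In lfy-12 none of the 8 was called by limma against Col, with UFO at 0.41 ± 0.17, SPT at -0.21 ± 0.13 and AGL42 at -0.32 ± 0.18.

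Some members had low signals at day 0. By construction 25% of all probe sets on an array lie below its lower quartile. The mean at day 0 was below the lower quartile of all probe sets on those arrays for 11 members in Col (quartile 4.78) and 10 in Ler (quartile 4.71), and for none at day 7 in either. At day 7 it was still below the quartile for 4 members in lfy-12, while co-2 had 8 such members and ft-2 had 9. No pair of the 18 member loci lay within 10 protein-coding genes of each other in the RefSeq gene order.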

How the data were processed

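Total RNA of shoot apices was measured on 40 single-colour oligonucleotide arrays. The values were used as deposited by the authors and were read as log2 signals, because their range of 3.03 to 13.63 taken as natural logarithms would pass the 65535 steps of a scanner. The authors' background correction and normalization are not given in the sources used here. Array controls were left out, and 22746 probe sets were tested. The platform annotation gave 1 gene for 13513 of them, several for 503 and none for 8730.

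Means of the 20 groups were fitted to all 40 arrays with limma 3.58.1 in R 4.3.3 (20 residual degrees of freedom, moderation with an intensity trend, two-sided). The 15 contrasts use only days 3 and 5, with Benjamini-Hochberg adjustment within each and a threshold of 0.05. The fit was tested on simulated data. With 2 arrays a group an exact permutation test cannot go below p = 0.333. Alternatives were quantile normalization, a mean above 5, no trend, a replicate block, fits of the genotypes compared, and leaving out arrays. Same-numbered arrays had deviations that correlated at -0.27 to 0.38 over 11 contrasts, so the numbers were not taken as pairs.

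All members with 1 gene listed are named, and of the others the 6 with the largest Col difference. The members, gene lists and named items were chosen with earlier results of these data known.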

Additional observations from a re-analysis of the deposited data

Results flagged for a closer look

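The step from day 3 to day 5 differed between genotypes, by limma's test of that difference with Benjamini-Hochberg adjustment, in 10 cases. Against Ler the step was smaller in co-2 for 259124_at (-2.02), 250108_at (-1.40), 266353_at (-1.28) and 253309_at (-1.22). Against the same Ler arrays it was smaller in ft-2 for 259124_at (-1.96), 250108_at (-1.29), 253309_at (-1.02) and AT1G13680 (-0.94). Between accessions it was larger in Ler than in Col for 259124_at (2.06) and 250108_at (1.08). The values behind 253309_at, named after its values were seen, were 5.38 on both arrays of day 3 and 6.40 and 6.23 at day 5 in Ler, 5.73 and 5.69 then 5.36 and 5.48 in co-2, and 5.42 on both arrays then 5.32 and 5.34 in ft-2.

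The run with a mean above 5 left out 259124_at and 250108_at. In every alternative run that kept them, all 3 differences of 259124_at and the co-2 differences of 250108_at and 253309_at held. The others did not. AT1G13680 in ft-2 was lost without any 1 of the 8 arrays (adjusted p = 0.098 to 0.228) with quantile normalization (adjusted p = 0.0709), without the intensity trend (adjusted p = 0.0594) and with the replicate block (adjusted p = 0.0536). For 253309_at in ft-2 the call was lost without any 1 of 7 of the 8 arrays (adjusted p = 0.0662 to 0.155), the exception being replicate 2 of Ler day 5, and in the fit of Ler and ft-2 arrays alone (adjusted p = 0.0630). The ft-2 difference of 250108_at was lost without replicate 1 of Ler day 5 (-1.03). Its difference between accessions was lost without any 1 of the 4 Col arrays or without replicate 1 of Ler at day 3 (0.85) or day 5 (0.82). The co-2 difference of 266353_at was lost without any 1 of 7 of the 8 arrays, with values of -1.35 to -1.21, the exception being replicate 2 of co-2 day 3.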

How the results depend on the processing

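No result reversed. Of 83 called results of named members, 37 held in every alternative that kept the probe set. Of 872 alternative values of called results, 702 kept the call and 170 lost it. The number of members was 23 with a limit of 1 in Col and Ler, 10 with 25% in lfy-12, and 29 to 44 without 1 array. Counts of members called without 1 array are given first for mutant against accession: at day 5, 2 to 3 (lfy-12), 15 to 18 (co-2) and 16 to 20 (ft-2); at day 3, 0 to 1, 1 to 8 and 2 to 3. For the step from day 3 to day 5 they were 1 in Col for each array left out, 7 to 12 in Ler, 0 to 1 in each mutant. For differences of the step they were 0 for lfy-12 and Col, 3 to 4 for co-2 and Ler, 1 to 5 for ft-2 and Ler, and 1 to 2 for Ler and Col. In ft-2 the difference count was lowest, 1, without replicate 1 of Ler day 5. With a mean above 5, the Ler step gave 9 members, the co-2 step 1, and the differences of the step 2 for co-2, 1 for ft-2 and 0 for Ler and Col; this filter tests fewer probe sets and keeps 27 members. Quantile normalization gave 1 member for lfy-12 at day 3 and 1 for the co-2 step. Without the 3 arrays that carried transcripts of the other background, the counts were 4 for co-2 at day 3, 0 for the lfy-12 step and 1 for the step between Ler and Col. In fits of only the genotypes compared they were 1 for lfy-12 at day 3, 4 for co-2 at day 3, 1 for the Col step, 0 for the ft-2 step, 2 for the ft-2 difference and 1 for Ler and Col. Where no construction is named, the cause was not tested.

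With the replicate number as a block in the fit of 40 arrays, the day 5 counts were 4 (lfy-12), 21 (co-2) and 24 (ft-2), the Col step gave 2 and the Ler step 14, and no count moved by more than 1.5 times. It ended 5 calls of named members: AT4G21870 and 267264_at in co-2 at day 5, 245819_at in the Col step, AT5G52390 in the Ler step and AT1G13680 in the ft-2 difference (adjusted p = 0.0502, 0.0518, 0.0505, 0.0518 and 0.0536). In Col, Ler and ft-2 same-numbered arrays of days 3 and 5 had deviations that correlated below -0.1. A crossed pairing in fits of 4 arrays, chosen after seeing the data, gave 5 members for the Col step, 18 for Ler and 3 for ft-2, against 0 for Col and 17 for Ler with the numbers as labelled. The 2 arrays of each group limit the precision. The search for promoter motifs that was planned was not run, since no promoter sequences were at hand.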
